A study of Mus musculus with 2 samples.

Results

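The mitochondrial carrier family, named SLC25, was examined here as the protein-coding mouse genes whose symbol starts with Slc25a, together with the uncoupling protein genes Ucp1, Ucp2 and Ucp3. The GENCODE M21 annotation held 50 such genes among 21911 protein-coding genes. They were chosen by name and not by a measured value, though with earlier results of these data known. Their chromatin was read by DNase-seq, which maps where the enzyme DNase I can cut, in hearts of 14-day-old males of strain B6CASTF1/J, the F1 hybrid between C57BL/6J and CAST/EiJ mice. The 2 samples are biological replicates of 1 group, both from that strain and age, with no treatment or genotype contrast in the labels. Replicate 1 is labelled as 3 males, whereas no number is given for replicate 2, so an SD over the replicates may set a pool beside a single heart.

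SLC25 carriers are mostly proteins of the inner mitochondrial membrane that exchange or import the small molecules on which oxidative metabolism depends, among them ADP and ATP, phosphate, acylcarnitines, amino acids, carboxylates, nucleotides, metals and cofactors. They share a fold made of repeated pairs of membrane helices, and the uncoupling proteins are members that let protons leak back into the matrix. In heart muscle the export of ATP, the entry of phosphate and the import of fatty acids as carnitine esters all pass through this family.

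A gene's promoter signal was the highest deposited peak signal within 1 kb of any annotated start, with 0 where no peak was listed. How the peak signal was scaled is not stated. The files' descriptions name a track normalized to read depth, but do not tie the peak values to it, so levels of the replicates are set side by side on the deposited scale as given. No read totals were at hand, so the depth behind each value is unknown and no counting interval could be given. Weak access in every cell and strong access in a few cells cannot be told apart in bulk tissue. Replicate 1 had 143122 peaks and replicate 2 had 125118, and their median signals were 0.780 and 0.728. Promoters of 5 of 5 cardiomyocyte markers had a peak in both replicates, as did 68.8% of all protein-coding genes. The markers' mean signals lay between 1.11 for Pln and 2.93 for Ryr2. Only that of Ryr2 exceeded the median over all genes, 2.86. The erythroid markers Alas2, Gata1 and Hba-a1 and the hepatocyte markers Alb, Apoa1 and Cps1 had none in either replicate. The brown fat markers Cidea, Ppargc1a, Prdm16 and Dio2 had peaks in both replicates, with means of 2.91, 1.08, 2.25 and 0.572. The cardiomyocyte and brown fat ranges overlapped, so these promoter peaks do not tell those cell types apart. Of the testis markers, Tex14 and Dazl had strong promoter peaks, with means of 14.0 and 8.52, and Ddx4 had none.

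Most carrier promoters were accessible in the heart. A promoter peak was present in both replicates for 43 of the 50 carrier genes (86%), against 68.8% of all protein-coding genes. With the smaller deposited peak set the count was also 43 (86%), against 65.3%. The median promoter signal of the 50 genes was 6.76 in replicate 1 and 5.68 in replicate 2, against 3.06 and 2.68 over all protein-coding genes, and the medians of the replicate means, 6.46 and 2.86, stood 2.26-fold apart. The gap was smaller among genes accessible in both replicates, with a median of 7.65 for the 43 carriers and 6.59 for all 15067 genes. Of those 43, 25 stood above the median of accessible genes, and 8 of the 50 were in the top 10% of all genes, at a signal of 14.2 or more. Slc25a29 and Slc25a47, both among these 8, took their value from the same peak. Peaks sat close to annotated starts, with a median distance of 38.5 bp from a start to the middle of the peak, against 55 bp over all accessible genes. In 35 of the 43 accessible carriers the highest peaks of both replicates were centred within 250 bp of a start (81.4%, against 82.9% of accessible genes, a share near the background). With a single group, these shares are descriptions without a test.

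**Figure D1:**
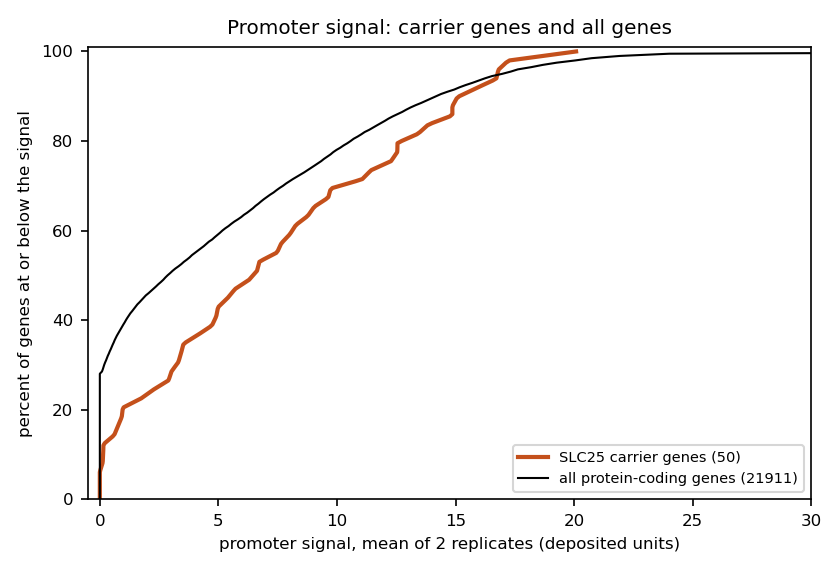
Cumulative distribution of the promoter signal (mean of 2 replicates, deposited units, linear axis) for the 50 SLC25 carrier genes and for all 21911 protein-coding genes. The carrier curve lies to the right of the curve of all genes except among the strongest promoters, with medians of 6.46 and 2.86, and the carriers' highest value is 20.1.

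**Figure D2:**
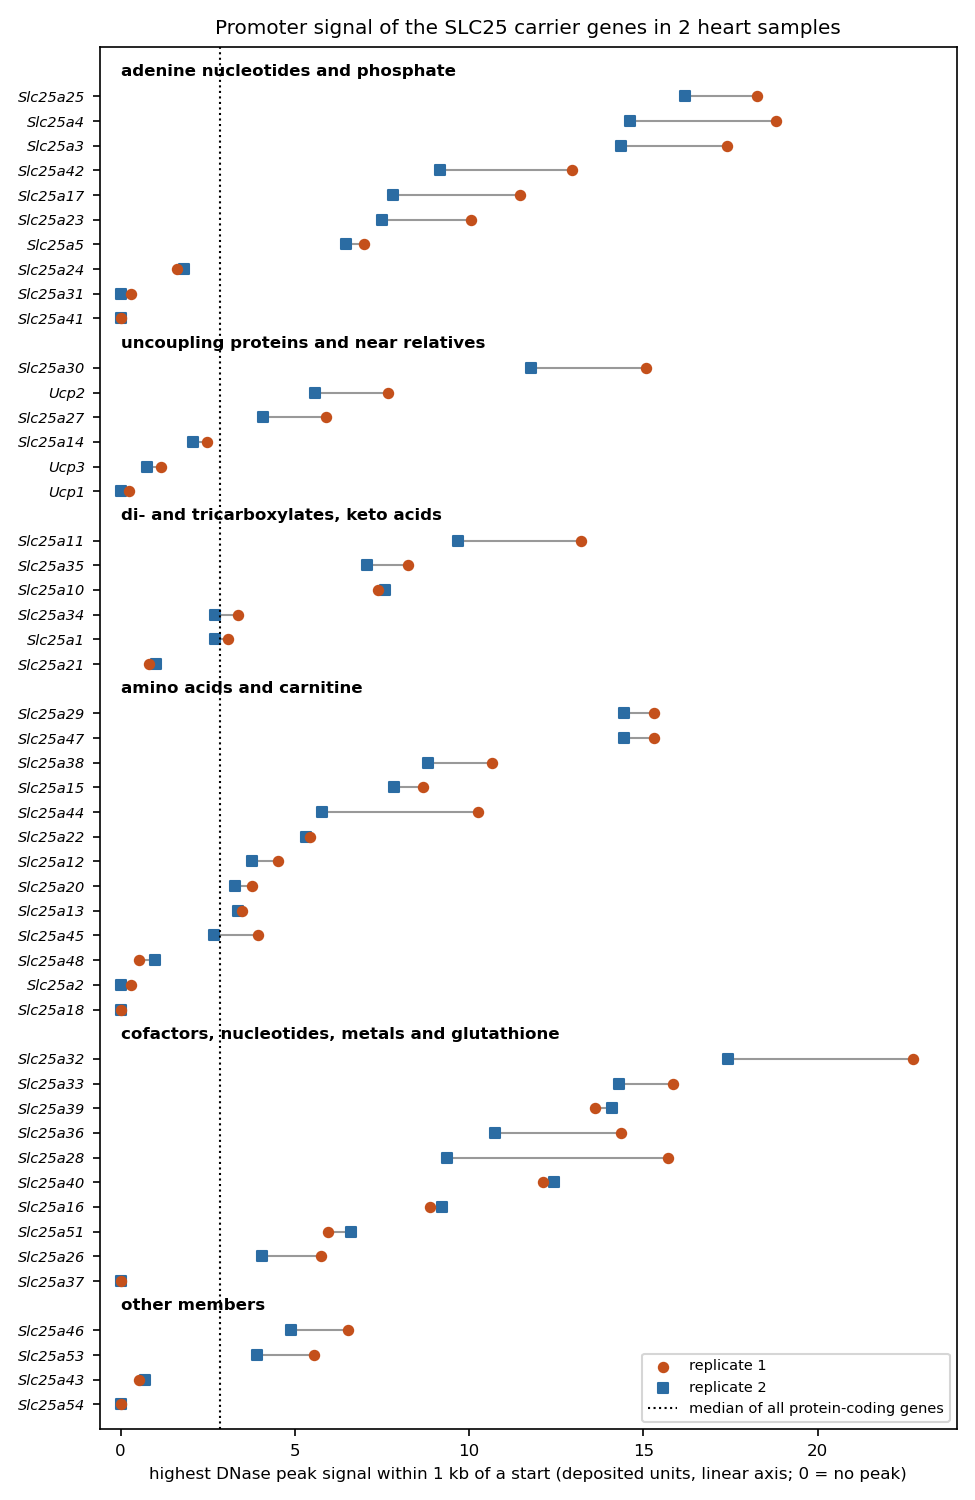
Promoter signal of 49 of the 50 carrier genes in replicate 1 (circles) and replicate 2 (squares), grouped by the molecules carried and ordered by the mean within a group. The dotted line is the median of all protein-coding genes, 2.86, and the group that moves cofactors, nucleotides, metals and glutathione has 9 of its 10 members drawn here to the right of that line.

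The exchange of ADP for ATP across the inner membrane is done by ADP/ATP carriers, and the gene for the form typical of heart and skeletal muscle, Slc25a4, had one of the strongest promoters of the family. Its signal was 18.8 in replicate 1 and 14.6 in replicate 2, a mean of 16.7 ± 2.97 (SD, n = 2), higher than 94.7% of all genes. Slc25a5, the form associated with growing and dividing cells, had 6.99 and 6.48, a mean of 6.73 ± 0.361. Both replicates of Slc25a4 were thus above both of Slc25a5, whose gene lies on chromosome X, of which a male has a single copy. Whether copy number has a part in this difference was not tested. For Slc25a5 the highest peak lay 746 bp inside the gene, and its peak at the start had 5.54 and 3.99. The testis form, Slc25a31, had a single weak peak, of 0.284, in replicate 1 alone. The phosphate carrier gene Slc25a3, whose product supplies phosphate for ATP synthesis, had 17.4 and 14.4, a mean of 15.9 ± 2.15.

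The promoter sequences of both ADP/ATP carrier genes accessible here held the letters TATAA at the usual distance before a start. With the first base 20 to 35 bases before any annotated start, on the strand of the gene, TATAA was found for 6 of the 50 carriers (12%) and for 7.28% of all protein-coding genes. In Slc25a4 it began 27 bases before the start at position 46211030 of chromosome 8, and in Slc25a5 it began 28 bases before the start at position 36795651 of chromosome X. Both matches lay inside a footprint, a short stretch protected from cleavage, in each replicate. None of the matches at the other 4 carriers, Slc25a13, Slc25a16, Slc25a26 and Slc25a30, did so, nor did a further match of Slc25a4 before its upstream start. Those of the 4 carriers lay before later starts with no peak within 500 bp in either replicate. The TATAA search was added after values had been seen. It took every annotated start, and carriers had a median of 4 starts per gene, against 3 for all genes. The share of all genes' TATAA matches inside footprints was not counted. The peak regions are printed on the strand of the gene from the mm10 assembly, with capitals for bases inside footprints of both replicates, to show the protected stretch with TATAA. For Slc25a4 the region is chr8:46210961-46211160 on the minus strand, and for Slc25a5 it is chrX:36795481-36795680 on the plus strand.
Slc25a4: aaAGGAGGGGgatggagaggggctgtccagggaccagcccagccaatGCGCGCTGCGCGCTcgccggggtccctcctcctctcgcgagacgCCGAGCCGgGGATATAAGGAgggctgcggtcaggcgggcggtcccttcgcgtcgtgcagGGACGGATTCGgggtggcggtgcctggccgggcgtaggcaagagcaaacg
Slc25a5: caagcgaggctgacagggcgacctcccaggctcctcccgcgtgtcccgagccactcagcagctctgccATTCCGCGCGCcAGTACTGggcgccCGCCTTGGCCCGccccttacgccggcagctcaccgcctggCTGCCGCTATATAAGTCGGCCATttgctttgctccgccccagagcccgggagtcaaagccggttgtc
The region of Slc25a4 ran from 124 to 323 bases after the first base of the annotated gene, so it surrounded the second of the annotated starts, and 52 of its 200 bases lay in footprints of both replicates. In Slc25a5 the region held 53 such bases.

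Other carriers of this group move nucleotides under control of calcium or serve coenzyme A. Slc25a25, which encodes a calcium-regulated exchanger of ATP-magnesium for phosphate, had 18.2 and 16.2, the second highest mean of the family at 17.2 ± 1.45. It had a pair of nearly equal peaks, one centred 75 bp before the first base of the gene with a mean of 17.1 ± 1.30, and one 735 bp before it with 16.6 ± 2.39. The upstream peak was the higher in replicate 1 and the other in replicate 2. The peak nearer the gene also reached the promoter window of Naif1. The sister genes were weaker, with a mean of 8.77 ± 1.80 for Slc25a23 and 1.73 ± 0.142 for Slc25a24. Slc25a41, a related gene, had no promoter peak in either replicate. Slc25a42, a coenzyme A carrier, had a mean of 11.1 ± 2.68, and Slc25a17, whose protein lies in peroxisomes and carries coenzyme A and related nucleotides, had 9.63 ± 2.58. In this group the promoters of 8 of 10 genes were accessible in both replicates, against 68.8% of all protein-coding genes.

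Among the uncoupling proteins the brown fat gene, Ucp1, was almost inaccessible. A peak of 0.241 was listed for replicate 1 only, and in replicate 2 its promoter held no base with a false discovery rate under 0.05. No DNase region shared by the replicates lay in Ucp1 or 10 kb either side. Ucp2, which is expressed in many tissues, had 7.68 and 5.58, a mean of 6.63 ± 1.49. Ucp3, the form of skeletal muscle, heart and brown fat, had a weak promoter of 1.17 and 0.770, a mean of 0.970 ± 0.283 at the 38.8th percentile of all genes. Its strongest own site was an intronic region centred 1900 bp after the start, at chr7:100474801-100474980, with 2.72 and 1.96. The near relatives Slc25a30, Slc25a27 and Slc25a14, all described in kidney or brain, had means of 13.4 ± 2.32, 4.98 ± 1.27 and 2.27 ± 0.295, from 15.1 and 11.8, 5.88 and 4.09, and 2.48 and 2.07 in replicates 1 and 2. Ucp1 stood below all the others, and both values of Slc25a30 stood above those of every other gene in the group.

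**Figure D3:**
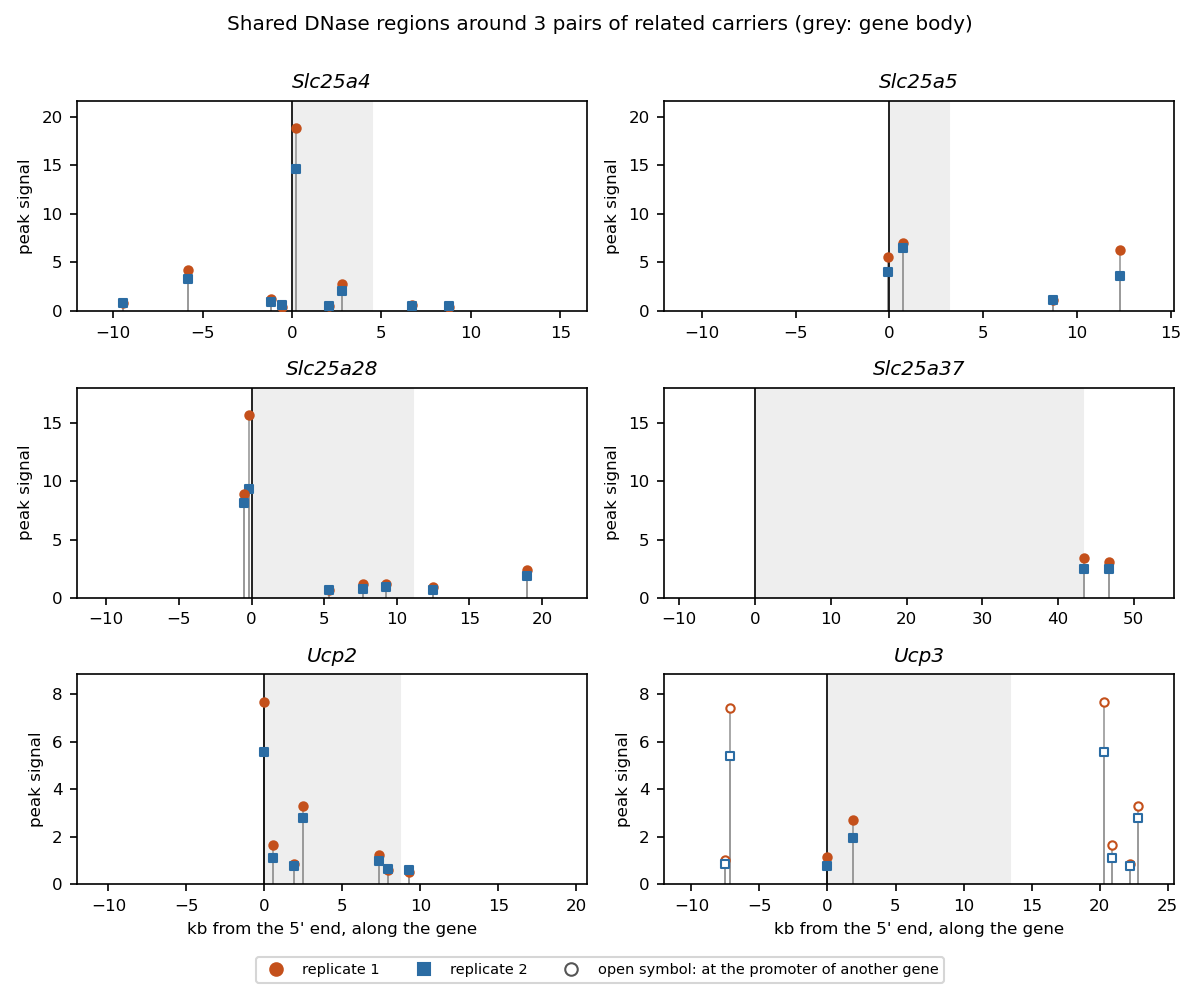
Peak signal of the DNase regions shared by both replicates (circles, replicate 1; squares, replicate 2) against distance from the first base of the gene in kb, for Slc25a4 and Slc25a5, Slc25a28 and Slc25a37, and Ucp2 and Ucp3. The grey band is the gene body, and each pair has a common linear vertical axis. Slc25a37 has no region at its start and 2 past its end, and the highest symbols in the panel of Ucp3 are open, which marks promoters of C2cd3 and Ucp2.

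The promoters of all 6 genes for carriers of dicarboxylates, tricarboxylates and keto acids were accessible in each replicate, against 68.8% of all protein-coding genes. Slc25a11, the oxoglutarate/malate carrier of the malate-aspartate shuttle, had 13.2 and 9.67, a mean of 11.4 ± 2.49, from a peak that also reached the promoter of Rnf167. Slc25a35, whose substrate is not settled, had 8.24 and 7.06, and Slc25a10, the dicarboxylate carrier, had 7.38 and 7.57. The other 3 were lower, with 3.03 ± 0.464 for Slc25a34, 2.90 ± 0.265 for the citrate carrier Slc25a1 and 0.925 ± 0.144 for the oxodicarboxylate carrier Slc25a21, the last from 0.823 in replicate 1 and 1.03 in replicate 2.

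Carriers of amino acids and carnitine ranged from a mean of 14.9 at a peak between a pair of genes to no peak at all. Both replicates had a promoter peak at 11 of the 13 genes, against 68.8% of all protein-coding genes. The aspartate/glutamate carriers, Slc25a12 and Slc25a13, which complete the malate-aspartate shuttle, had means of 4.15 ± 0.523 and 3.43 ± 0.0778, the second from 3.48 in replicate 1 and 3.37 in replicate 2. Slc25a12 is the form known from heart, muscle and brain and Slc25a13 that from liver, and both promoters lay near the middle of all genes, at the 55.6th and 52.5th percentiles. Slc25a20, the carnitine/acylcarnitine carrier of fatty acid oxidation, had 3.77 and 3.29, also near the middle at the 52.9th percentile. These 3 genes had weaker promoters than Slc25a4 or Slc25a3 in each replicate.

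The pairs of related amino acid carriers differed in accessibility. Of the glutamate carriers, Slc25a22 had 5.44 and 5.33, and Slc25a18 had no promoter peak and no shared region in its body or 10 kb either side. Of the ornithine carriers, which serve the urea cycle in liver, Slc25a15 had 8.68 and 7.85, and Slc25a2 had a weak peak of 0.305 in replicate 1 alone. Slc25a38, a glycine carrier needed for heme synthesis, had 10.6 and 8.83. Slc25a44, which imports branched-chain amino acids, had 10.2 and 5.79, the highest ratio of replicate 1 to replicate 2 in the family. Slc25a45 had a mean of 3.31 ± 0.903, and Slc25a48 had 0.539 and 0.997, a mean of 0.768 ± 0.324.

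Slc25a29, a carrier of basic amino acids, and Slc25a47, known from liver, start in opposite directions from a common site. The peak between them, at chr12:108835841-108836100, had 15.3 and 14.4 and gave both genes a mean of 14.9 ± 0.612. Without peaks that reach the starts of more than 1 gene, Slc25a29 had 1.00 and 1.18 and Slc25a47 had 0, so the signal cannot be assigned to either gene.

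The group that carries cofactors, nucleotides, metals and glutathione had the highest median of the groups, 12.5, against 6.46 over all 50 carriers. In this group 10 of 11 genes were accessible in both replicates, against 68.8% of all protein-coding genes. Without peaks that reach several genes its median was 9.04, below the 9.20 of the carriers of adenine nucleotides and phosphate. Slc25a32, which carries folate or FAD, led the family with 22.7 and 17.4, a mean of 20.1 ± 3.74 that exceeded 98.0% of all genes. Its only promoter peak also touched the start of Dcaf13, and Slc25a32 had none without it. The pyrimidine nucleotide carriers Slc25a33 and Slc25a36 had 15.8 and 14.3, and 14.4 and 10.7. The glutathione carriers Slc25a39 and Slc25a40 had 13.6 and 14.1, and 12.1 and 12.4, and the peak of Slc25a40 also reached the start of Dbf4. Slc25a39 had a pair of promoter peaks, and the higher lay 694 bp before a start in replicate 1 and 4 bp after one in replicate 2. Slc25a16, linked to coenzyme A, had a mean of 9.04 ± 0.238, the NAD carrier Slc25a51 had 6.29 ± 0.463, and the S-adenosylmethionine carrier Slc25a26 had 4.91 ± 1.20. In this group replicate 1 was not always the higher: replicate 2 was higher at Slc25a16, Slc25a39, Slc25a40 and Slc25a51.

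For 3 of the 5 strongest promoters the window at the first base of the gene held short consensus letters inside footprints of both replicates. These 3 are shown because of their promoter signal. How many of all genes held any of these letters inside footprints of both replicates was not counted. For Slc25a4, also among the 5, this window did not overlap the highest peak. Weaker promoters also held such matches, with 3 each at Slc25a1 and Slc25a44. Each window runs from 250 bases before to 50 bases after the first base of the gene on its own strand, in mm10, and capitals mark such matches. The window of Slc25a32 is chr15:39112667-39112966 on the minus strand, with 3 matches to the SP letters GGGCGG and 1 to CAGCTG, the E-box of myogenic factors.
Slc25a32: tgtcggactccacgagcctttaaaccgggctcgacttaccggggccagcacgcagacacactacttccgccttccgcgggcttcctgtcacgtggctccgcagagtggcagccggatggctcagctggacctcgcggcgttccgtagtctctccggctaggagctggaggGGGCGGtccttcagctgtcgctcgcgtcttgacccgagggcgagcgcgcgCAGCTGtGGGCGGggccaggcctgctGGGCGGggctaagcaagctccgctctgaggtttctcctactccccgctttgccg
The window of Slc25a25 is chr2:32451396-32451695 on the minus strand, with 2 SP matches and 1 to the NFY letters CCAAT and with the NFY match and the upstream SP match read on the opposite strand.
Slc25a25: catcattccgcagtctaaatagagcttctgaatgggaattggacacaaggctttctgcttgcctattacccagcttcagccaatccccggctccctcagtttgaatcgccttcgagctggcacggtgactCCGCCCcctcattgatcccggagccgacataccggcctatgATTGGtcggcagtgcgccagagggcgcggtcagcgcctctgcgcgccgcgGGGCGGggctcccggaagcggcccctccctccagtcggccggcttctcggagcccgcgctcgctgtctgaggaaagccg
The window of Slc25a3 is chr10:91124010-91124309 on the minus strand, with 1 match to the NRF1 letters GCGCANGCG on the opposite strand and 1 SP match.
Slc25a3: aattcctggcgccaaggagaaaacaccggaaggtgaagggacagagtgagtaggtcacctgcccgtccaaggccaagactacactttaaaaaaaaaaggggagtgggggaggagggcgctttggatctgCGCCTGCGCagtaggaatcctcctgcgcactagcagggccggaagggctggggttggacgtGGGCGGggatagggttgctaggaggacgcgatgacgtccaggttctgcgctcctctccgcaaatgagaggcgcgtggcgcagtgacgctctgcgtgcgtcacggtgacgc
NRF1, a nuclear factor known to act on genes of mitochondrial proteins, had its letters in 3 of the 50 carrier windows, and those of Slc25a3 and Slc25a51 lay inside footprints of both replicates. The match of Slc25a31, the testis gene, lay in none. How often NRF1 matches of all genes lay inside footprints was not counted.

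The iron importers differed in accessibility. Slc25a28 (mitoferrin-2), the form of most tissues, had 15.7 and 9.37, a mean of 12.5 ± 4.49, with a second promoter peak of 8.95 and 8.15 509 bp before the gene. Slc25a37 (mitoferrin-1), the form of developing red cells, had no promoter peak, no promoter base with a false discovery rate under 0.05 and no promoter footprint in either replicate. The erythroid markers were likewise at 0, meaning that no peak was listed, and a link between them and Slc25a37 was not tested. Slc25a37 had 2 shared regions, both past its end, at chr14:69241641-69241820 with 3.41 and 2.44 and at chr14:69238301-69238480 with 3.08 and 2.46. Both held a match to the consensus of CTCF, a factor that binds insulators and loop anchors. Of all 105 shared regions in or near the carriers that lay away from protein-coding starts, 6 (5.71%) held a CTCF match in the 200 bp around their middle, against 6.88% of all 76465 such regions. The CTCF consensus was added after values had been seen. The regions are printed on the minus strand, that of the gene, in mm10, with the match in capitals, to show what lay beside a carrier gene with no accessible promoter.
Slc25a37 region at 69241641: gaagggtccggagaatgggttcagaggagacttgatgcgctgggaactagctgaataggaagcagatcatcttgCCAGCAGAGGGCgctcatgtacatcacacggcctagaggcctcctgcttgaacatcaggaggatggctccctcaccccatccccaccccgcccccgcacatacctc
Slc25a37 region at 69238301: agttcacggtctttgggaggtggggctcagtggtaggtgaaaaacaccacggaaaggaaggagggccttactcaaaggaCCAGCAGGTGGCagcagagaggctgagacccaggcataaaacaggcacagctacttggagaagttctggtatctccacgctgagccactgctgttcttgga
The other 4 matches were near Slc25a24, Slc25a27, Slc25a36 and Slc25a53.

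The remaining members are not carriers of a settled substrate. Slc25a46, which lies in the outer membrane and shapes mitochondria, had 6.53 and 4.88, and its peak also reached the start of B930094E09Rik. Slc25a53 and Slc25a43, both on chromosome X, had 5.55 and 3.91, and 0.518 and 0.692. Slc25a43 was the weakest of the 43 genes with a peak in both replicates. Slc25a54 had no promoter peak, like Slc25a18, Slc25a37 and Slc25a41, and none of these 4 had a promoter base with a false discovery rate under 0.05 in either replicate. The 4 members on chromosome X, Slc25a5, Slc25a14, Slc25a43 and Slc25a53, had means between 0.605 and 6.73.

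A shared promoter peak makes some of these values uncertain. The highest peak also touched another gene's window in 8 of the 43 accessible carriers (18.6%), against 18.4% of all accessible genes, a share near the background. For 7 of the 8 the value moved by over 1.5 times without such peaks, and 6 of these, Slc25a11, Slc25a27, Slc25a32, Slc25a40, Slc25a46 and Slc25a47, then had no promoter peak. The neighbour of Slc25a27 was Cyp39a1. Slc25a25 changed little, because its other peak reached no other gene.

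Where a carrier gene had several groups of annotated starts more than 1 kb apart, the first was the most accessible. This held for 25 genes: in all 25 the first group had a peak within 500 bp in both replicates, higher in each replicate than at any later group. The same held for 80.3% of the 9817 protein-coding genes with several groups and a promoter peak in both replicates. Of the 55 later groups, 8 had a peak in both replicates (14.5%, against 18.8% over those genes) and 46 had none in either (83.6%, against 77.3%). The 8 belonged to 5 genes. Ucp2 had 3.28 and 2.78 at its second group, against 7.68 and 5.58 at its first. Slc25a25 had 2.62 and 1.72 at its second group and 2.25 and 1.88 at the next, against a mean of 17.1 ± 1.30 at its first. Slc25a22 had means of 2.12 and 1.93 at its later groups, against 5.38 at the first. The later groups of Slc25a28 and Slc25a53 had means from 0.904 to 1.07.

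On the deposited scale replicate 1 was higher at 34 of the 43 accessible carriers and at 80.7% of all accessible genes, and the log2 ratio of the replicates, 1 over 2, had a median of 0.27 at the carriers and 0.26 over all accessible genes. The SD of the log2 ratio was 0.32 at the carriers and 0.28 over accessible genes. The highest log2 ratios were 0.82 at Slc25a44, 0.75 at Slc25a28 and 0.60 at Ucp3. The lowest were −0.89 at Slc25a48, −0.42 at Slc25a43 and −0.32 at Slc25a21, and each of these 3 had a mean under 1. The carriers' shift between replicates thus had the size seen over accessible genes.

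Beyond promoters, the carriers had a median of 4 shared DNase regions in the gene body and 10 kb either side, against 3 for all protein-coding genes. Over the 50 genes there were 233 such entries, which are 224 different regions since neighbours share some. Introns held 49 entries in 21 genes, and these were weak, with a median of 0.713, against 3.53 for the 79 entries at the genes' own promoters. The most regions, 10, were counted at Slc25a13, Slc25a25 and Slc25a33, and 9 at Slc25a4 and Slc25a22, among others. At Slc25a13 all but the promoter were intronic, with means between 0.363 and 1.59, in a long gene. At Slc25a22, 4 of the 9 regions were promoters of neighbours, among them Rplp2. Slc25a32 and Slc25a40 had their promoter alone, and Ucp1, Slc25a18 and Slc25a31 had no shared region.

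**Figure D4:**
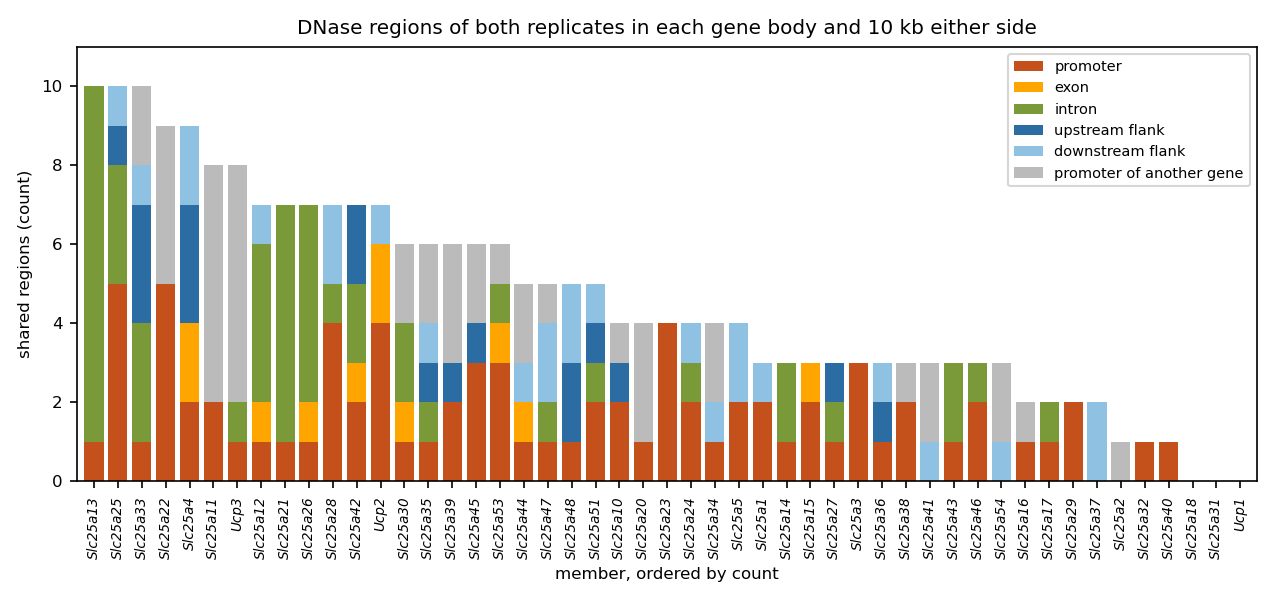
Number of DNase regions found in both replicates in the body of 49 of the 50 carrier genes and 10 kb either side, stacked by where the region lies. Slc25a13 reaches 10 through introns, Slc25a11 and Ucp3 reach 8 mainly through promoters of neighbouring genes, and 3 genes have none.

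Sites away from protein-coding starts were strong at a few carriers. The highest lay past the end of Slc25a25, at chr2:32404821-32404960, with 13.1 and 8.42, and the next were 3964 bp before Slc25a39, at chr11:102411821-102412000, with 11.0 and 8.40, and past the end of Slc25a1, at chr16:17921921-17922100, with 10.3 and 8.43. That site of Slc25a1 exceeded the gene's own promoter, with 3.09 and 2.71, in both replicates. Slc25a5 had a downstream site of 6.33 and 3.58. Slc25a4 had 7 such sites, of which the strongest lay 5816 bp before the gene with 4.22 and 3.30 and the next in an exon with 2.82 and 2.08. Slc25a42, the coenzyme A carrier, had a site 4395 bp before the gene with 4.31 and 2.92. Which gene such a site serves was not measured.

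The letters TCAAGGTCA, bound by the estrogen-related receptors that are known to drive mitochondrial genes in heart, were in none of the 50 windows from 250 bases before to 50 after the first base of the gene, and in 0.475% of those of all genes. With windows of 250 bases either side the order turned, with 2 carriers (4%) against 0.730% of all genes. In the 200 bp around the middle of regions away from starts they occurred on either strand in 3 of 105 near the carriers (2.86%) and in 0.413% of all 76465. The 3 lay 9464 bp before Slc25a4, in an exon of Slc25a12 and in an intron of Slc25a30, with means of 0.805, 1.09 and 0.813. With 3 matches, the share rests on single regions, and this search around regions was added after values had been seen. It took all 13 consensus sequences besides that of CTCF, and TCAAGGTCA stood furthest above its share over all regions. Those of NRF1, YY1, GATA and THAP11/ZNF143 also stood above theirs, and the others stood below, such as SP at 5.71% against 9.98%. The letters CTAAAAATA of MEF2 and AGATAAG of GATA factors were in none of the 50 windows and in 0.479% and 2.80% of all genes' windows. These windows hang on the first base of the gene and missed the highest peak of some carriers. For Slc25a4 the window, chr8:46211235-46211534, did not overlap the peak at chr8:46210961-46211160. The highest peaks of Slc25a11 and Slc25a23 also lay outside their windows. Absence from these windows is thus not absence from the promoter peak.

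Of the 13 consensus sequences searched on both strands of those windows, the SP letters GGGCGG were the most frequent, in 32 carriers (64%), against 43.0% of all genes. Among genes accessible in both replicates the shares were 72.1% for the carriers and 57.9% for all genes. In 12 of the 32 a match lay inside a footprint of each replicate (37.5%), against 43.7% of all genes with a match. Among accessible genes with a match these shares were 38.7% for the carriers and 47.2% for all genes. Of the 12 carriers, Slc25a29 and Slc25a47 hold the same match, since their windows overlap. The E-box letters CACGTG, bound by MYC, USF and related factors, were in 11 carriers (22%), against 7.74% of all genes, and in 20.9% of accessible carriers, against 9.68% of accessible genes. The 11 were Slc25a1, Slc25a2, Slc25a13, Slc25a14, Slc25a26, Slc25a31, Slc25a32, Slc25a33, Slc25a36, Slc25a46 and Slc25a51. No CACGTG match touched a footprint in both replicates, and at Slc25a46 and Slc25a51 one touched a footprint in replicate 1 alone. How often CACGTG matches of all genes touched footprints was not counted. In windows of 50 bp either side the E-box count was 4 (8%), against 3.35% of all genes.

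The remaining consensus letters were found as follows, each share set against that of all genes: CCAAT of NFY in 22 carriers (44%, against 39.0%), CCGGAAG of ETS factors in 9 (18%, against 10.8%), GGAATG of TEAD factors in 9 (18%, against 13.5%), CAGCTG in 8 (16%, against 15.6%), GCGCANGCG of NRF1 in 3 (6%, against 8.28%), AAGATGGC of YY1 in 2 (4%, against 2.91%) and ACTACANTT of THAP11 and ZNF143 in 2 (4%, against 1.88%). Several of these orders turned with the setting. With 250 bp either side NFY stood at 48% against 48.7% and TEAD at 18% against 20.3%, with 50 bp either side YY1 stood at 0% against 1.70% and CAGCTG at 6% against 6.22%, and among accessible genes CAGCTG stood at 14.0% against 15.4%. For NRF1 the gap was wider among accessible genes, at 4.65% of carriers against 11.3% of all. A match describes letters and not binding.

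**Figure D5:**
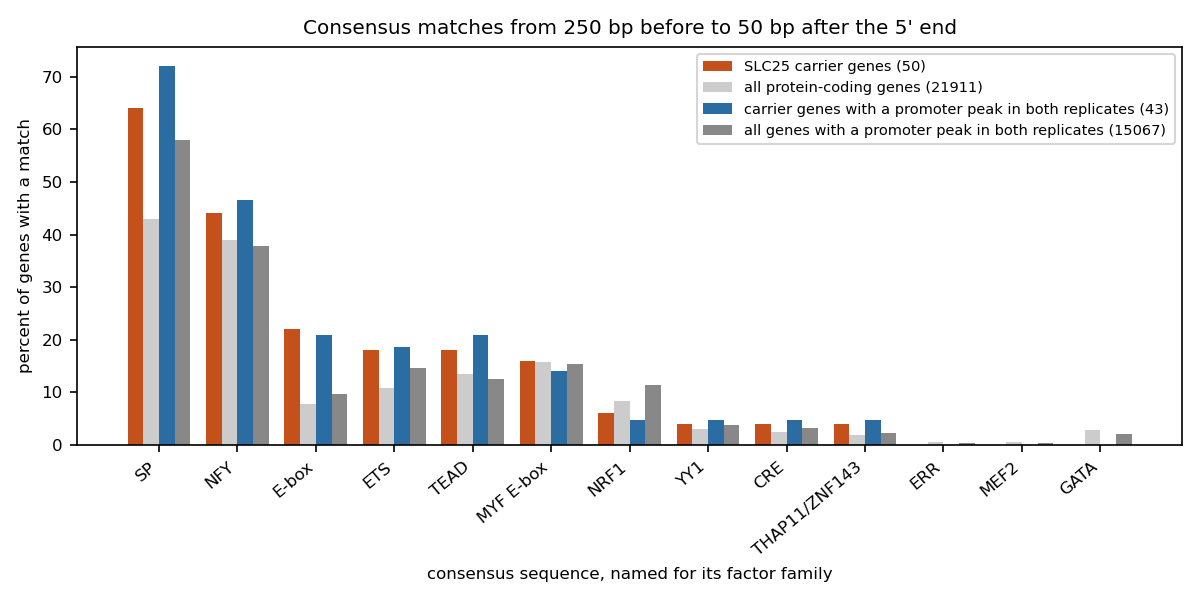
Share of genes, in percent, whose window holds each of 13 consensus sequences (both strands searched), from 250 bp before to 50 bp after the first base of the gene, for the 50 carriers, all 21911 protein-coding genes, the 43 accessible carriers and the 15067 accessible genes. The bars for the E-box CACGTG stand at 22% of carriers and 7.74% of all genes, and those for NRF1 at 6% and 8.28%.

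The cAMP response element, TGACGTCA, was in 2 carriers (4%, against 2.43% of all genes), and in both it lay inside a footprint of each replicate. They were Slc25a36, the pyrimidine nucleotide carrier, 45 bases before the first base of the gene, and Slc25a26, the S-adenosylmethionine carrier, 36 bases before it. Each also held a CACGTG a short way upstream of the element, outside the shared footprints. Over all genes, the share of TGACGTCA matches inside footprints was not counted. The stretches are printed with 40 bases either side of the element, which is in capitals, on the strand of the gene in mm10. They are chr9:97111155-97111242 on the minus strand and chr6:94500255-94500342 on the plus strand.
Slc25a36: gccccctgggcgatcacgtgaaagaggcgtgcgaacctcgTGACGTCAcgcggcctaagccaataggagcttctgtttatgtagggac
Slc25a26: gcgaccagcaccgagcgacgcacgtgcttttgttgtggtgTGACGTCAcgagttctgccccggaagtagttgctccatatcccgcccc

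Footprints found in both replicates, overlapping by at least 50% of the shorter, lay within 1 kb of a start in 40 of the 50 carriers (80%), against 64.5% of all protein-coding genes. Most were counted at Slc25a25, with 20, and at Slc25a28 and Slc25a39, with 13 each. Of the 43 genes with a promoter peak in both replicates, Slc25a13, Slc25a34 and Slc25a43 had none. Carriers were also more often accessible than all protein-coding genes, at 86% against 68.8%. By count, 40 carriers held a shared footprint and 43 were accessible, against 14128 and 15067 over all protein-coding genes. Whether the footprint gap goes beyond this gap in accessibility was not tested.

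The machinery that brings carriers into the inner membrane was accessible throughout. Each of the 13 genes of this import route was accessible at its promoter in both replicates, against 68.8% of all protein-coding genes. The route's genes were listed with earlier results of these data known. Their median was 7.50, against 2.86 over all genes, from Timm8a1 with 1.26 and 1.27 to the receptor gene Tomm20 with 17.0 and 17.2. All 24 genes of other mitochondrial transporters and channels were accessible too, with a median of 10.6. Mpc2, a subunit of the pyruvate carrier, had 27.3 and 20.7, above every SLC25 gene in each replicate, and Cpt1b, the muscle enzyme that makes the acylcarnitines that Slc25a20 imports, had 2.48 and 1.91.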

How the data were processed

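The deposited files were made per replicate from its own alignment, on mm10, per the descriptions deposited beside them. Those descriptions list a separate track normalized to read depth; the scaling of the deposited peak signal itself, like the callers and versions, is not given in the sources used here. The p-value column of the deposited base lists holds false discovery rates for runs of bases, all under 0.05. The deposited footprints carry 1 other value, 0.01 on every line, which was not used. How reads of the CAST/EiJ parent were treated on the C57BL/6J reference is not stated.

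From these files the larger peak set gave each gene the highest signal within 1 kb of any start in GENCODE M21, and 0 with no peak. Peaks of both replicates were merged, and regions holding a peak of each were called shared. Sequences and consensus matches came from the RefSeq FASTA of GRCm38.p6, the assembly of mm10. With 1 group of 2 replicates no test was made, and values are means and SDs. A single member is counted in every total but not reported here by itself, and is not drawn in the plots of single genes; all others are named, and values in each replicate are given for members with no or a single peak, the 3 highest of each role, those with the most regions, the extreme replicate ratios and shared peaks, and others were named after their values were seen. The members, lists and consensus sequences were chosen with earlier results of these data known. The steps were checked on simulated data. Python 3.11.15 and numpy 2.4.6 were used. Alternatives covered windows, flanks, peak sets, footprint overlap and each replicate alone.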

Additional observations from a re-analysis of the deposited data

How the results depend on the processing

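The count of carrier genes with a promoter peak in both replicates, 43, was also 43 with windows of 500 bp, windows of 2 kb, the 5' end alone and the smaller peak set, 41 with the upper 50% of peaks (82%, against 62.3% of all genes) and 37 when peaks touching several genes were left out (74%, against 58.6%). Either replicate alone gave 43 to 46. The median promoter signal of 6.46 moved to 3.84 when only peaks touching 1 gene were counted, where that of all genes was 1.02 and the medians stood 3.75-fold apart, and leaving out one replicate gave 5.68 to 6.76. The median number of shared regions, 4, was 2 in the gene body alone, 9 with a flank of 50 kb, and 2 when regions within 1 kb of a start were dropped; for all genes it was 2, 9 and 1. The genes with a shared footprint numbered 39 to 45 over the alternatives. Windows of 2 kb raised Ucp3 to 2.34, through its intronic site, and gave Slc25a18 a peak of 0.412 in replicate 2 alone, and windows of 500 bp lowered Slc25a5 to 4.76. The smaller peak set listed no promoter peak for Ucp1, Slc25a2 and Slc25a31. No paired analysis was possible because there is 1 group. Read totals are not given, so what depth limits at weak promoters, such as the single peaks of Ucp1, Slc25a2 and Slc25a31, is unknown.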
